A study of Saccharomyces cerevisiae with 4 samples.

Results

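The 10 genes described here encode the enzymes of de novo purine synthesis in budding yeast (Saccharomyces cerevisiae): ADE4, ADE5,7, ADE8, ADE6, ADE2, ADE1, ADE13, ADE16, ADE17 and ADE12. They were found by gene symbol in the probe annotation of the arrays, which gave 1 probe set of its own to each of 9 genes, of 5656 genes measured in all. No probe set in the annotation used here carried the symbol ADE5,7, so that gene (YGL234W) has no value below. A further probe set is annotated to ADE6 together with other genes and was not used. The list was selected on the pathway and on the mutant minus wild-type changes of these same arrays, which were known when it was drawn up, the low ADE8 signal in the mutant among them. The changes of the members are therefore given as a description, and no p-value is printed for them. Counts of members that passed a threshold are likewise a description and not a test.

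The study measured transcripts with 4 Affymetrix arrays, 2 from wild-type cells and 2 from cells with histone H3 K4,36,79R, in which lysines 4, 36 and 79 are replaced by arginine. Both groups grew in selective galactose medium and were then moved to selective glucose medium for 9 h. The shift represses a wild-type H3 gene, so that in the mutant the altered H3 is left as the sole H3 made. The labels describe replicate cultures but give no strain name or marker genotype, so the state of the ADE loci in either strain is not known from them. The question of the comparison is which genes depend on the altered H3.

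Purines are built on a ribose phosphate. Ade4 commits phosphoribosyl pyrophosphate (PRPP) to the pathway, and the later enzymes close first the imidazole and then the pyrimidine ring to give inosine monophosphate (IMP), from which Ade12 and Ade13 make AMP. The Ade8 and the Ade16 and Ade17 reactions each take a one-carbon unit from formyl-tetrahydrofolate. Transcription of most ADE genes is activated by the Myb-type factor Bas1 together with the homeodomain factor Pho2 when adenine is scarce, and pathway intermediates promote the joining of these factors.

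One gene of the pathway was far lower in the H3 mutant and the other 8 measured genes were not. The signal of ADE8, which encodes the glycinamide ribonucleotide transformylase of step 3, in the mutant was 28.9% of that in wild type. The log2 changes of the other 8 measured genes ran from -0.53 for ADE13 to 0.39 for ADE2, with a median of 0.02. The median of all 9 was 0.01, beside 0.02 over the 5656 genes. Signals are MAS5 intensities brought to a common median on each array. Log2 changes are mutant minus wild type, computed after adding a pseudocount of 5.71 intensity units to each signal. All 9 genes had a mean signal above the pseudocount.

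The arrays differed between the groups in more than these genes. The 10 ribosomal RNA control probe sets all read higher on both mutant arrays, by a median of 1.43 on the log2 scale. For ACT1, the 3' probe set over the 5' one gave a signal ratio of 1.14 and 1.13 in wild type against 1.19 and 1.23 in the mutant. The part of either in the values below was not tested. In RNA from whole cultures, fewer cells expressing a gene and less of its RNA per cell cannot be told apart.

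The entry into the pathway was dim and close to level. ADE4 (YMR300C), the PRPP amidotransferase of step 1, gave 50.9 and 50.4 in wild type against 42.6 and 47.9 in the mutant. Both mutant values lay below both wild-type values, by less than the mutant arrays lay apart. The log2 change was -0.15 with a standard error (SE) of 0.16.

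ADE8 (YDR408C) gave 567 and 603 in wild type against 192 and 146 in the mutant. The groups lay far apart, and the brighter mutant array was still well under the dimmer wild-type array. The means were 585 ± 25.6 and 169 ± 32.7 (SD, n = 2 arrays each), and the log2 change was -1.77 (SE 0.19). On the same scale the wild-type replicates differed by 0.09 and the mutant replicates by -0.38. Of the 5656 genes only 0.04% had a lower change, which places ADE8 at rank 3 from the lowest.

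The measured genes of steps 4, 6 and 7 of IMP synthesis did not share this pattern. ADE6 (YGR061C), the formylglycinamidine ribonucleotide synthase of step 4, gave 876 and 837 in wild type against 815 and 627 in the mutant. Both mutant arrays were below the wild-type arrays, but the first lay close to them, and the log2 change was -0.26 (SE 0.22), or -0.07 without mutant replicate 2 and -0.45 without mutant replicate 1. ADE2 (YOR128C), the aminoimidazole ribonucleotide carboxylase of step 6, whose loss makes colonies red, gave 1179 and 768 in wild type against 1433 and 1094 in the mutant. The groups overlapped, and the wild-type arrays differed from each other by -0.61, more than the group change of 0.39 (SE 0.29). That change was 0.70 without wild-type replicate 1 and 0.09 without wild-type replicate 2, and 0.20 without mutant replicate 1. ADE1 (YAR015W), which makes SAICAR in step 7, gave 901 and 868 in wild type against 925 and 885 in the mutant. Its 4 values were close together and overlapped, with a log2 change of 0.03 (SE 0.20).

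**Figure D1:**
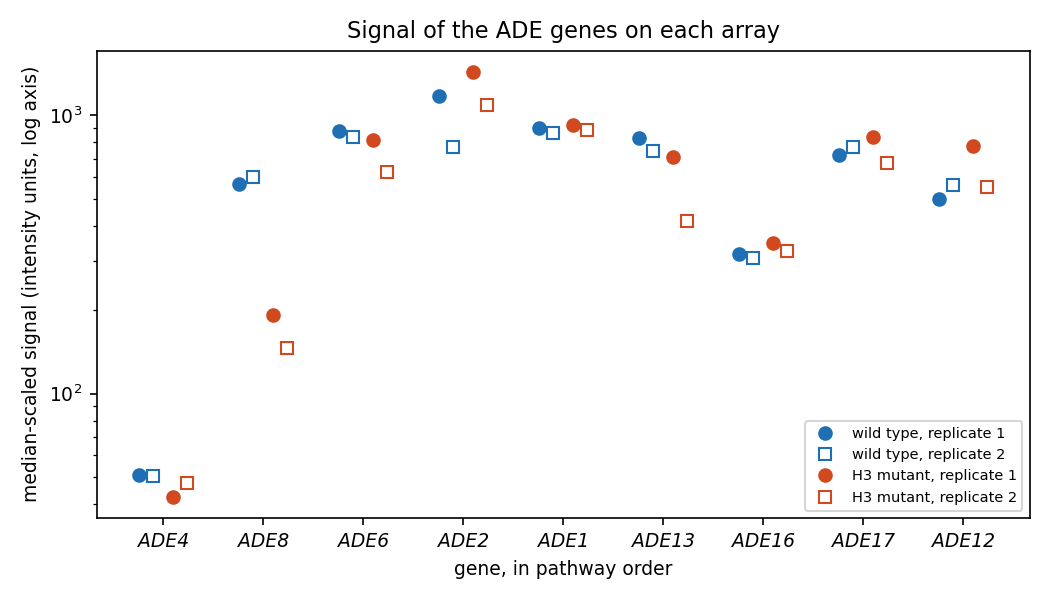
Median-scaled signal (log axis) of the 9 measured ADE genes on each of the 4 arrays, in pathway order. Circles are replicate 1 and squares replicate 2, in blue for wild type and red for the H3 mutant. Only for ADE8 do the mutant arrays (192 and 146) stand far from the wild-type arrays (567 and 603); signals of different genes come from different probes and are not to be compared.

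The last steps to IMP are made by a pair of isozymes that each carry the AICAR transformylase and IMP cyclohydrolase activities of steps 9 and 10. ADE16 (YLR028C) gave 318 and 308 in wild type against 348 and 325 in the mutant. Both mutant arrays were above both wild-type arrays, by a small margin, and the log2 change was 0.10 (SE 0.16). ADE17 (YMR120C) gave 723 and 773 in wild type against 836 and 674 in the mutant. The mutant arrays lay on either side of the wild-type arrays, with a log2 change of 0.01 (SE 0.21). Neither isozyme gene was low in the mutant as ADE8 was.

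ADE13 and ADE12 serve the branch from IMP to AMP. ADE13 (YLR359W), the adenylosuccinate lyase that acts both in step 8 and in the AMP branch, gave 830 and 744 in wild type against 707 and 418 in the mutant. Both mutant arrays were below the wild-type arrays, but the second much more than the first. The log2 change was -0.53 (SE 0.27), against a difference of -0.75 between the mutant arrays. Without mutant replicate 2 the change of ADE13 was -0.15, and without mutant replicate 1 it was -0.90. ADE12 (YNL220W), the adenylosuccinate synthase, gave 500.5 and 561 in wild type against 775 and 555 in the mutant. The second mutant array lay between the wild-type arrays, and the log2 change was 0.30 (SE 0.22). It was 0.07 without mutant replicate 1 and 0.54 without mutant replicate 2. The enzymes on either side of adenylosuccinate thus had changes of opposite sign after median scaling, each smaller than the difference between the mutant replicates.

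Signals of both mutant arrays were below those of both wild-type arrays for 4 of the 9 genes, where 27.2% of all genes showed this, and above them for 1, where 28.1% did. The log2 change was larger than both replicate differences for ADE8 and ADE16, which is 2 of 9 genes beside 40% of all genes. In the limma fit of all genes, with a Benjamini-Hochberg threshold of 0.05, 1 of the 9, ADE8, was called lower and 0 higher, where 0.849% of all genes were called lower and 1.03% higher. At an unadjusted p under 0.05 there was 1 of the 9, beside 23.2% of all genes. Since the list was drawn up with this comparison known, nothing is read from these counts. Without mutant replicate 1, and likewise without mutant replicate 2, limma called 0 of the 5656 genes (1510 and 2139 at an unadjusted p under 0.05). The change of ADE8 itself then lay between -1.58 and -1.96 for each of the 4 arrays left out in turn.

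**Figure D2:**
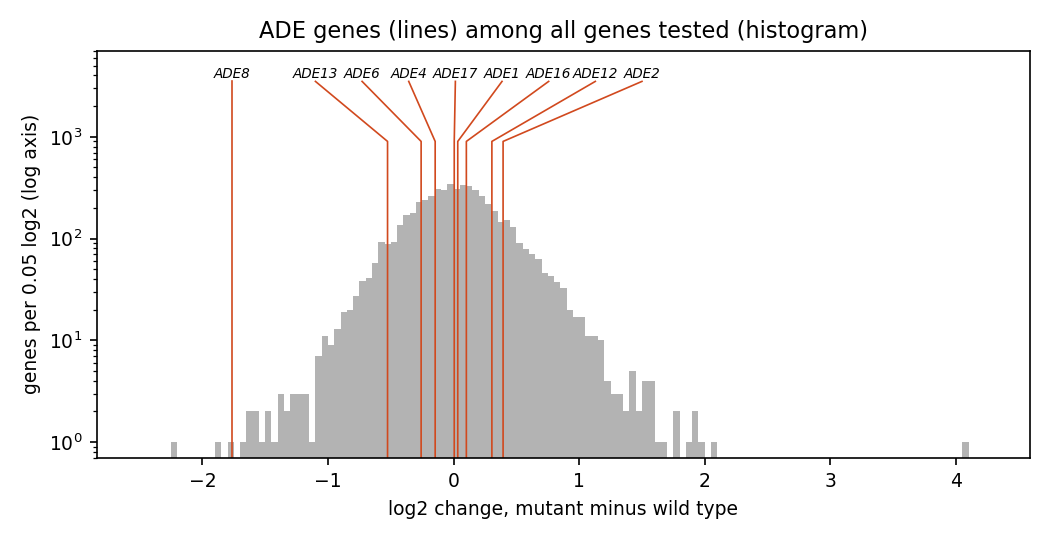
Histogram of the log2 change, mutant minus wild type, of all 5656 genes tested (log count axis, bins of 0.05), with a red line at each of the 9 ADE genes. ADE8 at -1.77 lies in the lower tail, and the other 8 lie between -0.53 and 0.39 within the bulk of genes.

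The scaling of the arrays set the sign of the changes above 0, while ADE8 stayed the lowest of the 9 ADE genes. Its rank among all genes was computed in the main fit only. Without any rescaling of the deposited values, which puts the median over all genes at -0.32, all 9 ADE genes were below 0, with ADE8 at -2.16 and ADE2 at -0.00. Relative to that median ADE8 was at -1.84, ADE13 at -0.60, ADE6 at -0.33, ADE4 at -0.18, ADE17 at -0.07, ADE1 at -0.04, ADE16 at 0.03, ADE12 at 0.23 and ADE2 at 0.32. With trimmed-mean scaling ADE8 was at -1.79 and with quantile normalization also at -1.77, and ADE17 moved just below 0 under both, to -0.02 and -0.05.

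Among themselves the members varied together between the replicates of the mutant. Mutant replicate 2 was below replicate 1 for 8 of the 9 genes, with a median difference of -0.38, and ADE4 was the exception at 0.15. The same difference had a median of -0.11 over all genes. It was -0.33 over the 696 genes at least as bright as ADE16, the dimmest member but ADE4, of which 588 were lower in replicate 2. Bright genes in general thus read lower on the second mutant array. Between the wild-type arrays the members differed by a median of -0.05, from -0.61 for ADE2 to 0.16 for ADE12.

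**Figure D3:**
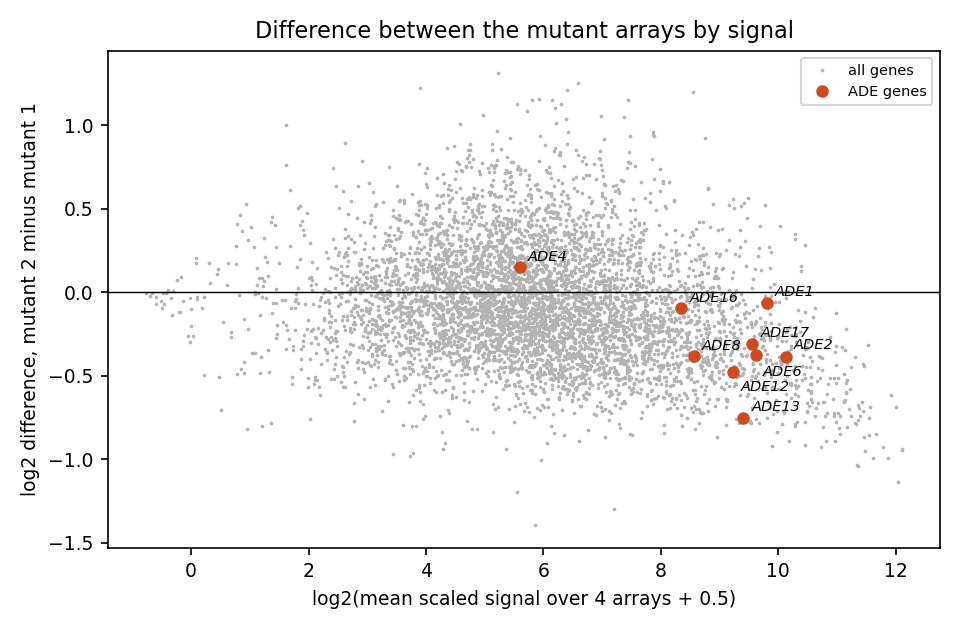
Log2 difference between the mutant arrays (replicate 2 minus replicate 1) against mean signal, for all genes in grey and the 9 ADE genes in red. The bright ADE genes lie below 0, from -0.06 for ADE1 to -0.75 for ADE13, in a cloud of bright genes that also lies mostly below 0, and the dim ADE4 lies at 0.15.

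The pathways that feed, drain or share control with IMP synthesis were examined as 6 lists of 36 genes, all measured, none of them a member. The lists too were chosen with earlier results of these data known. Their counts, and the p-values of their genes given below, are therefore a description and not an independent test. In the limma fit 1 of the 36 fell and 0 rose at an adjusted p under 0.05, where 0.849% and 1.03% of all genes did. Changes ran from -1.20 to 0.61 with a median of -0.12, beside 0.02 over all genes, and 26 of the 36 lay below 0, as did 47.9% of all genes. At an unadjusted p under 0.05 there were 6, which is no larger a share than the 23.2% of all genes.

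The gene that fell was AAH1, the adenine deaminase that turns adenine into hypoxanthine in purine salvage. It gave 231 and 213 in wild type against 83.1 and 105 in the mutant, so that the groups lay well apart. The log2 change was -1.20 (SE 0.17, limma adjusted p = 0.0338). Its log2 change ran from -1.03 to -1.58 over the 13 alternative settings. In most of them the sign could not differ from the main fit. Some keep the estimate as it was, and with groups that do not overlap, leaving out an array cannot reverse it. In the fits of all arrays AAH1 had a limma adjusted p from 2.02e-06 to 0.0623. The smallest came for AAH1 with the replicate number as a block, where its SE was larger (0.21). It no longer passed without mutant replicate 1 (limma adjusted p = 0.120), without mutant replicate 2 (0.0569), with trimmed-mean scaling (0.0548) or when all probe sets were fitted (0.0623). Of the 11 salvage and interconversion genes 9 lay below 0, with a median of -0.30. Without mutant replicate 2 there were 6, with a median of -0.17.

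Genes of one-carbon and glycine metabolism, which supply units to the Ade8 and Ade16/Ade17 reactions, all lay below 0, with a median of -0.37 over 6 genes. Without wild-type replicate 1 or without mutant replicate 2, 5 of the 6 lay below 0. None was called by limma (3 at an unadjusted p under 0.05, where 23.2% of all genes pass). These 3 were GCV1, GCV2 and GCV3. The rest of the list lay nearer 0, with ADE3 at -0.29 (SE 0.20), SHM2 at -0.12 (SE 0.19) and MTD1 at -0.02 (SE 0.21). GCV1, the T protein of the glycine cleavage complex, gave 437 and 451 in wild type against 307 and 237 in the mutant, a log2 difference of -0.70 (SE 0.19, limma adjusted p = 0.0947). GCV3, the H protein of the same complex, gave 1518 and 1479 in wild type against 1070 and 893 in the mutant, a log2 difference of -0.61 (SE 0.23, limma adjusted p = 0.171). For both genes the groups did not overlap. Of the 13 alternatives GCV1 passed in 2. These were the values as deposited (limma adjusted p = 0.0154) and the replicate number as a block (limma adjusted p = 0.0277), where its SE was larger (0.23). GCV3 also passed in 2, on the values as deposited (limma adjusted p = 0.0387) and with quantile normalization (limma adjusted p = 0.0417).

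PRPP, the substrate of Ade4, is made by the PRS gene products. None of the 5 PRS genes was called by limma (0 at an unadjusted p under 0.05), and their median was -0.34, or -0.21 without mutant replicate 1 and -0.23 without mutant replicate 2. PRS1 gave 619 and 539 in wild type against 366 and 476 in the mutant, a log2 change of -0.46 (SE 0.20). PRS4 gave 324 and 308 in wild type against 269 and 226 in the mutant, a log2 change of -0.35 (SE 0.17).

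On the branch from IMP to GMP 0 of 4 genes were called by limma (0 at an unadjusted p under 0.05), with a median of 0.01. IMD4, an IMP dehydrogenase gene, gave 744 and 501 in wild type against 1112 and 783 in the mutant, a log2 change of 0.61 (SE 0.28). It was 0.33 without wild-type replicate 2 and 0.36 without mutant replicate 1, and a further IMD4 probe set had a change of 0.19. IMD2, a dehydrogenase gene of the same family, gave 500.5 and 443 in wild type against 404 and 374 in the mutant, a change of -0.27 (SE 0.17). Its probe set, like that of IMD3, carries a suffix for sequence shared within a family, so its value may include related transcripts.

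Histidine synthesis releases AICAR, the substrate of Ade16 and Ade17, as a by-product. Of 7 HIS genes 0 were called by limma (1 at an unadjusted p under 0.05), with a median of -0.01. HIS3 gave 305 and 251 in wild type against 489 and 354 in the mutant, a log2 difference of 0.58 (SE 0.21, limma adjusted p = 0.170). HIS3 is a common marker gene, and the markers of these strains are not given in the labels. HIS6 gave 49.8 and 62.1 in wild type against 35.7 and 47.0 in the mutant, a log2 change of -0.39 (SE 0.19).

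The regulators were not called by limma (0 of 3 at an unadjusted p under 0.05). BAS1 gave 74.5 and 55.2 in wild type against 52.5 and 48.3 in the mutant, a log2 change of -0.32 (SE 0.19), and the groups lay close together. PHO2 was near the pseudocount, at 6.78 and 11.1 in wild type against 9.70 and 11.9 in the mutant, with a log2 change of 0.19 (SE 0.19). GCN4, whose product activates some purine genes along with amino acid synthesis, gave 1192 and 1147 in wild type against 1281 and 1109 in the mutant, a log2 change of 0.03 (SE 0.22). Transcript signals do not show the amount or activity of these factors.

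**Figure D4:**
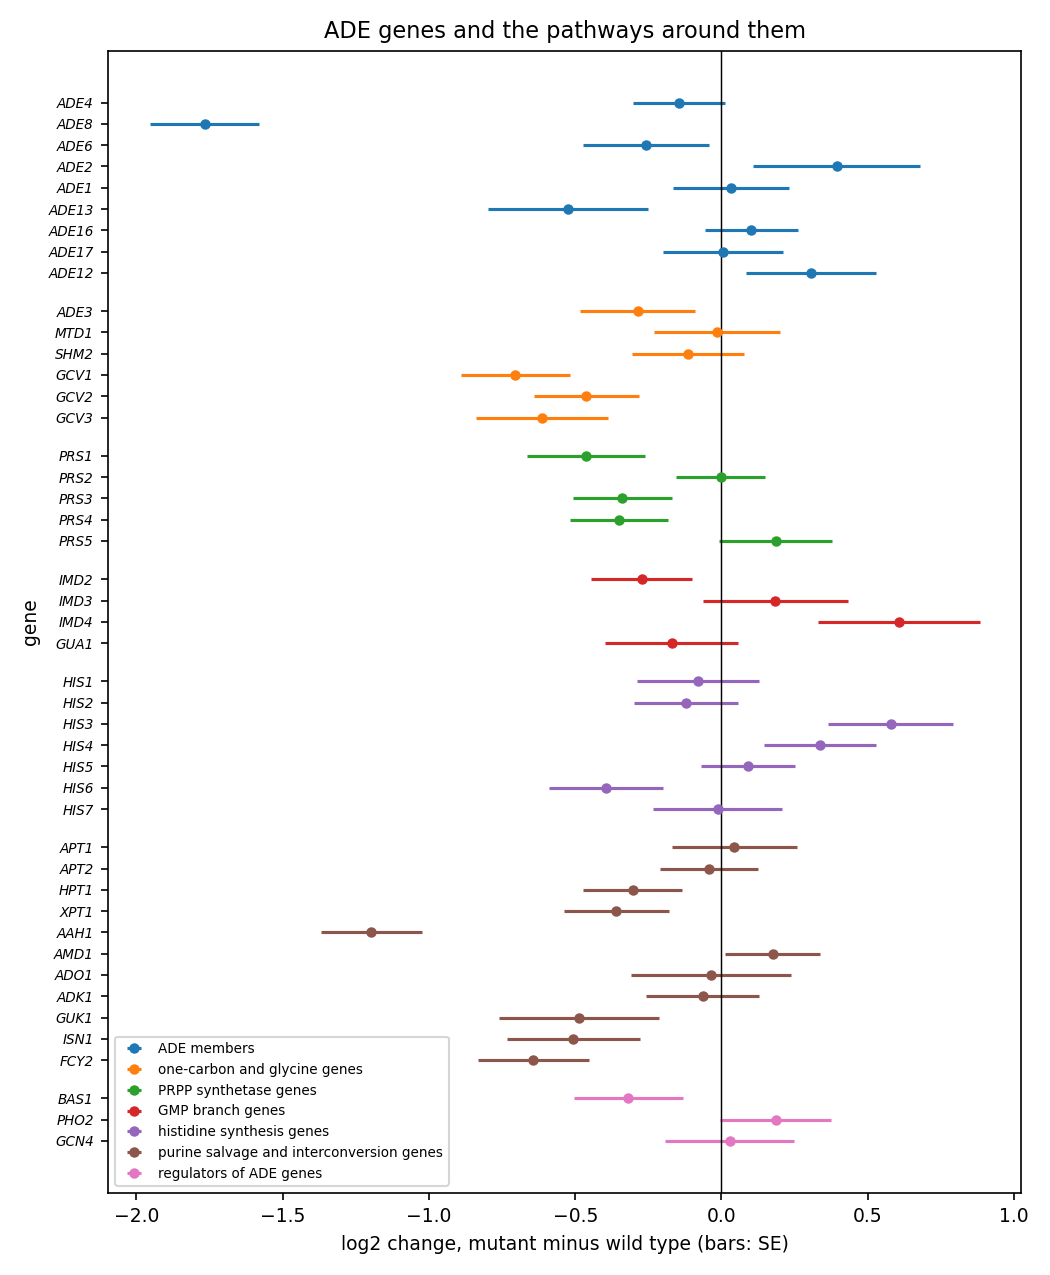
Log2 change, mutant minus wild type, of the 9 ADE genes and the 36 genes of 6 neighbouring pathways; points are limma estimates and bars are SE. ADE8 at -1.77 and AAH1 at -1.20 stand apart at the left, and the other genes lie between -0.70 and 0.61.

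By the root mean square distance of log2 values over the 4 arrays, each gene centred on its own mean, the genes nearest to ADE8 among 5399 genes above the pseudocount were GON7 (distance 0.114), HUA1 (0.118) and COS8 (0.140). GON7, a subunit of the KEOPS complex of tRNA modification, gave 54.3 and 50.3 in wild type against 15.1 and 11.7 in the mutant. HUA1 gave 62.6 and 76.7 in wild type against 18.6 and 16.5 in the mutant. COS8, of the COS membrane protein family, gave 63.8 and 83.4 in wild type against 22.6 and 18.4 in the mutant. No ADE gene was among the 3, which were picked for this likeness, so their lower mutant signals follow from the choice.

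The genes next to each member on the chromosome, in the order of RefSeq's R64 gene table, were examined after the values had been seen. All 20 neighbours of the 10 ADE genes were measured. None was called by limma (5 at an unadjusted p under 0.05, a share near the 23.2% of all genes), their median was 0.08, and 6 lay below 0 and 14 above. The 5 were both neighbours of ADE8, both of ADE2, and COX18 beside ADE6, with a log2 difference of -0.50 (SE 0.18, limma adjusted p = 0.154). The ADE8 neighbours were lower on both mutant arrays. TRS120, a subunit of the TRAPP vesicle tethering complex, gave 72.3 and 79.7 in wild type against 44.8 and 47.0 in the mutant, a log2 difference of -0.66 (SE 0.15, limma adjusted p = 0.0749). SIZ1, a SUMO ligase gene, was dim, at 13.7 and 17.7 in wild type against 7.52 and 6.46 in the mutant, a change of -0.75 (SE 0.16, limma adjusted p = 0.0659).

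The genes beside ADE2 were higher on both mutant arrays. RGA1, which encodes a GTPase-activating protein for Cdc42, gave 17.4 and 13.9 in wild type against 34.1 and 31.4 in the mutant, a log2 difference of 0.85 (SE 0.17, limma adjusted p = 0.0552). AFI1 gave 12.1 and 5.90 in wild type against 23.6 and 18.0 in the mutant, a change of 0.87 (SE 0.24, limma adjusted p = 0.0994). Both were dim, and the second wild-type value of AFI1 was near the pseudocount. Over the 13 alternatives these 4 changes varied in size. Their signs stayed, but in most settings they could not differ. The groups do not overlap, so leaving out an array cannot reverse a sign, and some settings keep the estimate as it was. TRS120 ran from -0.52 to -1.02, SIZ1 from -0.37 to -1.06, RGA1 from 0.53 to 1.03 and AFI1 from 0.46 to 1.18, and without wild-type replicate 2 AFI1 was at 0.56. With a pseudocount of 1 the changes were -0.71 for TRS120, -1.06 for SIZ1, 1.03 for RGA1 and 1.18 for AFI1. With 4 times the main pseudocount they were -0.52, -0.37, 0.53 and 0.46. In the limma fits of all scaled arrays without a block, TRS120, SIZ1 and AFI1 passed in none. RGA1 passed there only when dim genes were left out (limma adjusted p = 0.0466). On the values as deposited TRS120 (limma adjusted p = 0.0116) and SIZ1 (limma adjusted p = 0.0121) passed. With the replicate number as a block all 4 passed, at a limma adjusted p from 0.000994 for AFI1 to 0.0239 for TRS120. The SE of TRS120, SIZ1 and RGA1 was larger with the block. The isozyme genes ADE16 and ADE17 each lie next to a copy of the ribosomal protein gene pair RPL15A and RPL15B, whose changes were -0.07 (SE 0.22) and 0.42 (SE 0.27). Whether probes of adjacent genes share transcripts was not tested.

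**Figure D5:**
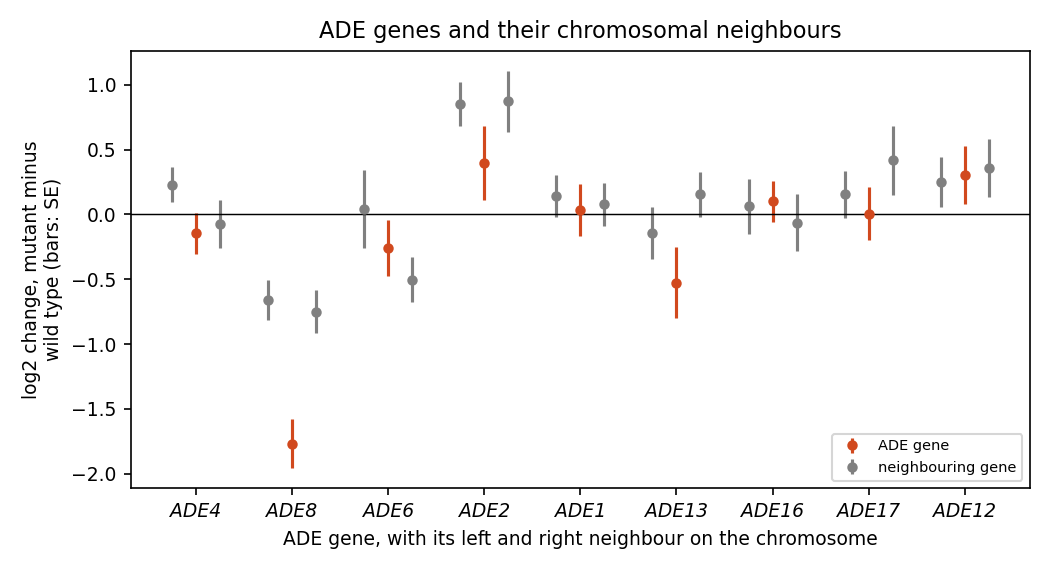
Log2 change, mutant minus wild type, of each measured ADE gene (red) between its left and right neighbour on the chromosome (grey); bars are SE. ADE8 at -1.77 lies between TRS120 at -0.66 and SIZ1 at -0.75, and ADE2 at 0.39 between RGA1 at 0.85 and AFI1 at 0.87.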

How the data were processed

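Per the labels' protocols, cells were harvested at an OD600 between 0.5 and 0.7, and biotinylated targets were made from about 20 ug of total RNA for 1-colour Affymetrix arrays. The deposited table holds linear intensity values, and the submitters' processing notes name MAS5; its version, the genome build and detection calls are not given in the sources used here. Before scaling the array medians were 37.3 and 38.4 (wild type) against 29.7 and 27.8 (mutant). All arrays were brought to the mean of these 4 medians over the 9335 probe sets, and a pseudocount of 5.71 (the 20th percentile) was added before log2. One probe set per gene was used, without a shared-sequence suffix where possible and then the brightest, which gave 5656 genes (211 on suffixed sets).

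Groups came from the sample titles. Mutant minus wild type was fitted with limma 3.58.1 under R 4.3.3, using lmFit and a trended eBayes (two-sided, Benjamini-Hochberg over all genes). The fit was tested on simulated data with independent noise for each gene and array. The simulated data held no shift of bright genes between replicates like that of the mutant arrays, so the test does not cover it. An exact permutation test of 2 against 2 arrays cannot give p under 0.333, and the number of arrays limits the precision. Named genes were all members, called genes of each list or else its 2 largest changes, the regulators and the 3 nearest patterns. The genes TRS120, SIZ1, RGA1 and AFI1, and the RPL15 pair, were chosen after their values were seen. Members and lists were chosen with earlier results of these data known. Alternatives changed the scaling, the pseudocount, the handling of dim genes, the probe set rule or the variance model, added a replicate block, or left out each array in turn. Promoter and protein sequences and other time points were not analysed here.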

Additional observations from a re-analysis of the deposited data

How the results depend on the processing

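The median of the ADE genes moved beyond its replicate spread under 1 of the 13 alternatives, the values as deposited (-0.39, where all genes had -0.32). On the values as deposited 1065 genes were called lower and 13 of the other purine pathway genes were called. The count of genes called higher was 38 with trimmed-mean scaling and 92 without dim genes. With all probe sets fitted 21 were called lower and 11 higher, and without the variance trend 30 were called lower, against 48 lower and 58 higher as reported. The other purine pathway genes called numbered 2 with quantile normalization, 0 with trimmed-mean scaling and 0 with all probe sets, against 1. Leaving out each array gave 0 to 85 genes lower and 0 to 196 higher, 0 to 1 ADE genes and 0 to 1 other purine genes, with 0 of each without mutant replicate 1 or 2. These fits assume that the lone array of a group varies like the other group. With the replicate number as a block 283 genes were called lower, 425 higher, and 2 other purine genes (AAH1 and GCV1), and no ADE gene beyond ADE8. The SE with the block was larger than in the main fit for ADE8 (0.23 against 0.19), AAH1 (0.21 against 0.17) and GCV1 (0.23 against 0.19). The lower adjusted p of these genes thus did not come from a smaller SE. Deviations of same-numbered arrays had r = -0.02 across genes. This correlation alone cannot show whether same-numbered arrays were prepared together. Single ADE genes moved beyond their replicate spread in 9 of 117 values, all on the values as deposited. Most of the 117 could not move. By the definition of this spread, leaving out an array cannot shift a change beyond it. Leaving out dim genes, fitting all probe sets, changing the variance model or adding the block keeps each estimate, and the median, as it was. The count is therefore no measure of stability. Dim genes such as PHO2 are limited by the pseudocount.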

Other observations

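Genes of the purine lists with more than 1 probe set allow a look at probe agreement. The further IMD4 probe set gave 476 and 357 in wild type against 477 and 467 in the mutant, a log2 change of 0.19 beside 0.61 for the set used. The further HIS3 set gave 75.2 and 78.8 in wild type against 126 and 91.3 in the mutant, a change of 0.45 beside 0.58. The further IMD2 sets had changes of -0.06 and -0.36 beside -0.27. The genes on either side of ADE5,7, which itself has no value here, were YGL235W, with a log2 change of 0.06 (SE 0.20) at signals below the pseudocount, and SEC15, an exocyst subunit gene, with 0.08 (SE 0.17).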
